A study of Homo sapiens with 3 samples.

Results

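The alpha and beta tubulins are the building blocks of microtubules, and 10 of their genes were examined here in H660 cells. They were taken by name from a table of 58735 genes: TUBA1A, TUBA1B, TUBA1C and TUBA4A encode alpha-tubulin, and TUBB, TUBB2A, TUBB2B, TUBB3, TUBB4B and TUBB6 encode beta-tubulin. H660 is an established human neuroendocrine prostate cancer cell line, used here in its parental form. RNA was measured by RNA-seq after 24 h with DMSO, the solvent control, with 2.5 μM JG231 or with 5 μM JG231. JG231 is an allosteric inhibitor of the chaperone HSP70. Each condition was 1 library from 1 cell line, so no replicate error exists and no gene has a p-value. The single DMSO library served as the reference for both doses. Values in runs of 3 are in the order DMSO, 2.5 μM, 5 μM.

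Microtubules are polymers of heterodimers, each made of an alpha- and a beta-tubulin. New tubulin chains pass from prefoldin to the chaperonin CCT and then to the tubulin folding cofactors, which join them into dimers. Several near-identical genes, the isotypes, encode each subunit. TUBA1A, TUBB2A, TUBB2B and TUBB3 are enriched in neurons, while TUBA1B, TUBA1C, TUBB, TUBB4B and TUBB6 are broadly expressed. Cells also adjust tubulin mRNA to the pool of free dimers: when free dimer is abundant, the factor TTC5 recognises the first residues of a tubulin chain on the ribosome and the mRNA is degraded.

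The start of the coding sequence is shown because the first codons encode the recognised residues and because they show how alike the isotypes are. The first 30 coding bases of the GENCODE release 44 transcripts follow, 5′ to 3′, with the first 4 codons in capitals.
TUBA1A: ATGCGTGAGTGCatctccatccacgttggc
TUBA1B: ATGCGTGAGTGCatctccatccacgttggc
TUBA1C: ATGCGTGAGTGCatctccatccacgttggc
TUBA4A: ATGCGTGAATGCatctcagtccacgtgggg
TUBB: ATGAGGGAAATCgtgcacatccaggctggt
TUBB4B: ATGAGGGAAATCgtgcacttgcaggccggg
TUBB2A: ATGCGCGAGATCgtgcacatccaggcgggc
TUBB2B: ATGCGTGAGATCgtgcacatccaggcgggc
TUBB3: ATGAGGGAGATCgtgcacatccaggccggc
TUBB6: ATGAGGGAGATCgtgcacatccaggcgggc

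TUBA1A, TUBA1B and TUBA1C had the same 30 bases. TUBB and TUBB4B shared their first 4 codons, and so did TUBB3 and TUBB6, whereas TUBB2A and TUBB2B each had their own. Within each family these codon differences are synonymous. Every beta gene shown encodes Met-Arg-Glu-Ile there and every alpha gene Met-Arg-Glu-Cys, so the first residues do not differ within a family. Over the whole coding sequence, TUBB2A and TUBB2B were 98.1% identical, with 25 differences in 1338 bases. The alpha genes TUBA1A and TUBA1B were 97.2% identical, and TUBB and TUBB4B were 84.4% identical. This likeness limits how reads can be assigned: 48.7% of the 150-base windows of the TUBB2A transcript and 41.6% of those of TUBB2B also occurred in another gene. The share was 8.01% for TUBA1A, 19.1% for TUBA1B, 7.22% for TUBA1C and 2.66% for TUBB, and it was 0 for TUBA4A, TUBB4B and TUBB6. TUBB2A and TUBB2B are therefore given one by one and as a summed pair.

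In DMSO the transcripts of TUBB and TUBB4B were the most abundant, and TUBA4A and TUBB3 had values below 1 FPKM. Levels are FPKM, fragment numbers corrected for transcript length and library size, so genes can be compared per length. TUBB stood at 319 FPKM, TUBB4B at 243, TUBA1B at 80.5, TUBA1A at 72.9, TUBB2B at 56.7, TUBA1C at 30.6, TUBB2A at 30.3 and TUBB6 at 4.71. TUBA4A had 0.61 FPKM and TUBB3 0.59 FPKM, an estimated 20 and 16 fragments. Fragments of a gene were estimated from its FPKM and the length of 1 GENCODE transcript. They may be well off for genes with several transcripts. Without replicates, the spread of the log2 difference between the 2 JG231 libraries was taken across the 500 genes with the closest mean FPKM and used as a yardstick, and it also holds any effect of dose. By it TUBA1B and TUBA1A were not separated (log2 gap 0.14, spread 0.22), nor were TUBA1C and TUBB2A (0.01, spread 0.25), nor TUBA4A and TUBB3.

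**Figure D1:**
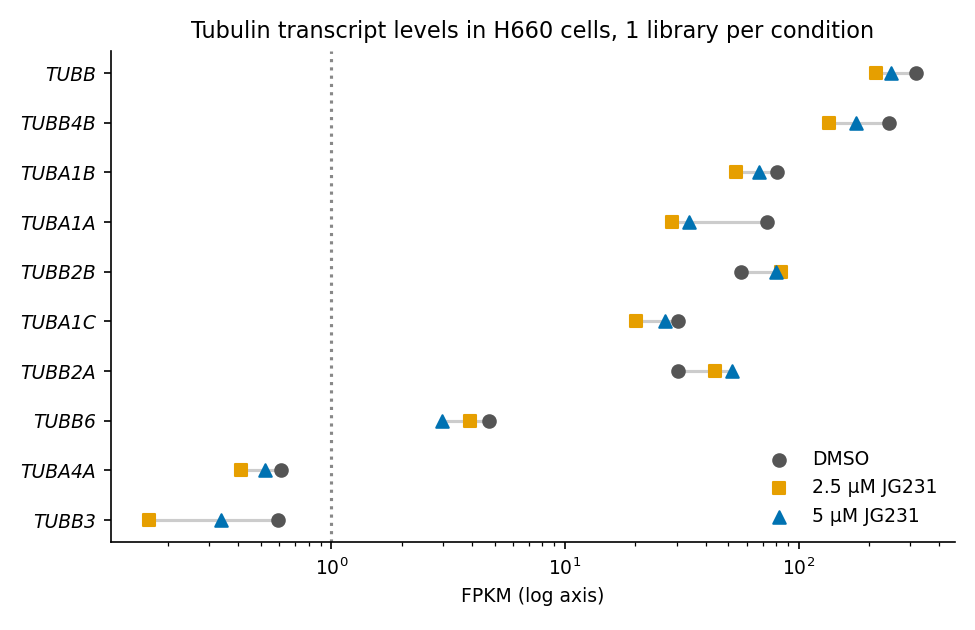
FPKM of each of the 10 tubulin genes, on a log axis, in the DMSO, 2.5 μM JG231 and 5 μM JG231 libraries; each point is 1 library and the dotted line marks 1 FPKM. TUBB and TUBB4B lie above 100 FPKM in all 3 libraries, TUBB2A and TUBB2B lie higher in both JG231 libraries than in DMSO, and TUBA1A lies lower.

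After JG231 the order changed among the middle genes. In both JG231 libraries it ran TUBB, TUBB4B, TUBB2B, TUBA1B, TUBB2A, TUBA1A, TUBA1C, TUBB6, TUBA4A and TUBB3, and only the gap between the last pair was within the spread. TUBB2B had moved ahead of both leading alpha genes, and TUBA1A had dropped below TUBB2A.

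The libraries held about 16.1 M, 20.4 M and 24.1 M fragments, read from the FPKM steps of genes with a single transcript. Mitochondrial genes took 39.8%, 24.1% and 28.8% of all FPKM, and leaving them and small RNA genes out of the scaling moved the median gene by -0.28 on the log2 scale at 2.5 μM and -0.37 at 5 μM. Of 7 neuroendocrine markers, 6 had a mean of at least 1 FPKM, with MYCN below it, and the 7 summed to 429, 176 and 151 FPKM. The sample records call the cell type prostatic adenocarcinoma, but of the luminal prostate markers KLK3 and TMPRSS2 were below 1 FPKM in every library, while the epithelial keratins KRT8 (224, 414, 505 FPKM) and KRT18 (169.5, 299, 379.5 FPKM) were abundant and higher after JG231. Summed basal, fibroblast and leukocyte markers ranged from 0 to 1.32 FPKM, and CDH5 of the endothelial markers from 4.92 in DMSO to 0.48 and 0.58 after JG231. The part of these shifts in the tubulin values was not tested. In bulk RNA, fewer cells of a kind and less RNA per cell cannot be told apart.

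TUBB2A and TUBB2B had higher transcript levels at both doses of JG231, while TUBA1A, TUBB and TUBB4B were lower at both, TUBB6 was lower at 5 μM and only just past the threshold at 2.5 μM, and TUBA1B and TUBA1C were lower at 2.5 μM and within the threshold at 5 μM. A gene was counted as higher or lower when its FPKM was above 1 in either library compared and its log2 change, with 0.1 added to each value, was over 0.25. By this rule 8 of the 10 genes could be counted, all but TUBA4A and TUBB3. At 5 μM, 2 were higher, against 36.5% of all 15765 genes, and 4 were lower, against 45.1%. At 2.5 μM, 2 were higher, against 36.4% of 15746 genes, and 6 were lower, against 43.4%. The share lower was thus close to the background at 5 μM and above it at 2.5 μM. Other scalings shift all genes: 6 of 8 were lower at 5 μM with libraries at the same FPKM sum, where 49.9% of all genes were lower and 31.5% higher. The count was also 6 of 8 with mitochondrial and small RNA genes left out of the scaling, where 59.6% of all genes were lower and 23.1% higher, and with the length trend removed, where 46.3% were lower. The median change was -0.31 at 5 μM and -0.58 at 2.5 μM, and over all counted genes it was -0.11 and -0.08. Abundant genes differ from that background: among the 1120 protein-coding genes in the top 10% by mean FPKM, 13.2% were lower and 69.1% higher at 5 μM, with a median of 0.58, and 14.9% were lower and 63.2% higher at 2.5 μM, with a median of 0.47. That group, above 36.9 FPKM, holds 6 members (TUBA1A, TUBA1B, TUBB, TUBB2A, TUBB2B and TUBB4B), of which 3 were lower at 5 μM and 4 at 2.5 μM, and 2 were higher at each dose.

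**Figure D2:**
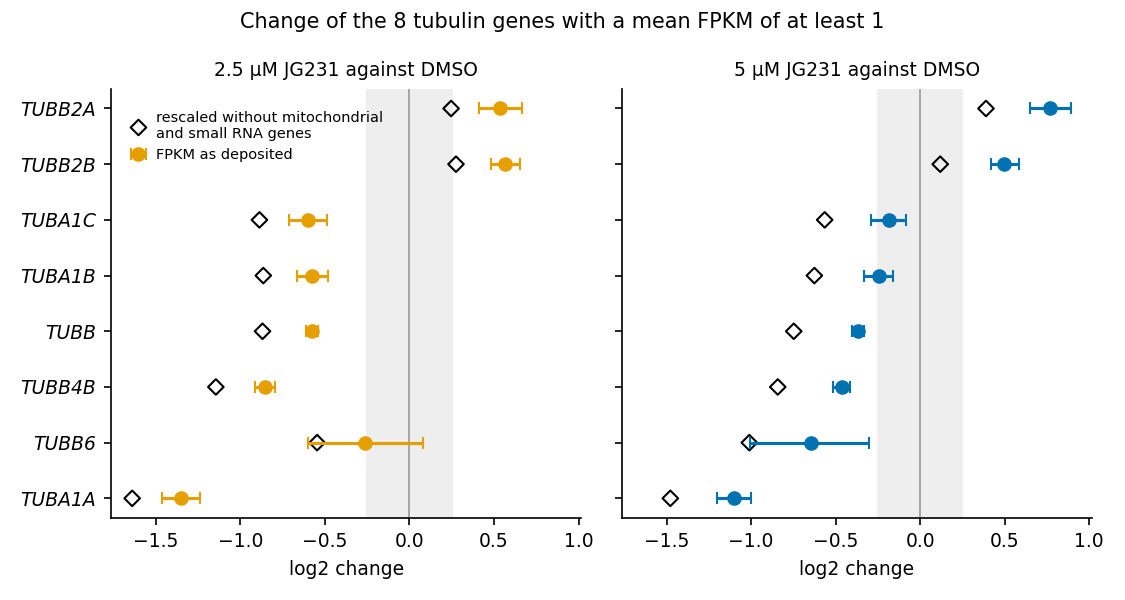
Log2 change against DMSO at 2.5 μM (left) and 5 μM (right) of the 8 tubulin genes with a mean of at least 1 FPKM; filled points are FPKM as deposited with 95% intervals for counting error only, open diamonds the values rescaled without mitochondrial and small RNA genes, and the grey band is ±0.25. The points of TUBB2A and TUBB2B lie above 0 on both scales at both doses and those of the other 6 genes below it. The intervals rest on approximate fragments.

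Among the alpha-tubulins, the largest decrease was in TUBA1A, the alpha isotype of developing neurons (ENSG00000167552, chromosome 12, 49184686 to 49189080, minus strand, GRCh38). It had 72.9, 28.6 and 34.0 FPKM, lower in both JG231 libraries. The log2 change was -1.35 at 2.5 μM (95% counting interval -1.46 to -1.24) and -1.10 at 5 μM (-1.20 to -1.001), several times its spread of 0.22. Its neighbour TUBA1B, the widely used alpha isotype (ENSG00000123416, chromosome 12, 49127782 to 49131397, minus strand), went from 80.5 FPKM to 54.0 and 67.8. TUBA1B changed by -0.57 at 2.5 μM and -0.25 at 5 μM, the latter just inside the threshold of 0.25. TUBA1C (ENSG00000167553, chromosome 12, 49188736 to 49274600, plus strand), another broadly expressed alpha isotype, had 30.6, 20.2 and 26.9 FPKM, with changes of -0.60 at 2.5 μM and -0.19 at 5 μM. The 3 genes lie close together, and TUBA1A and TUBA1C overlap on opposite strands; the libraries were stranded per the labels, but strand use in the counting is not given in the sources used here. TUBA4A (ENSG00000127824, chromosome 2, 219249710 to 219277902, minus strand) had 0.61, 0.41 and 0.52 FPKM, too low to be counted.

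Of the major beta-tubulins, TUBB, the leading isotype of dividing cells (ENSG00000196230, chromosome 6, 30717435 to 30725538, plus strand), had 319, 214 and 247 FPKM. Its log2 change was -0.58 at 2.5 μM (-0.61 to -0.54) and -0.37 at 5 μM (-0.40 to -0.33). TUBB4B, a broadly expressed beta isotype also found in cilia (ENSG00000188229, chromosome 9, 137241287 to 137243707, plus strand), had 243, 134 and 176 FPKM. Its changes of -0.85 at 2.5 μM and -0.46 at 5 μM were larger than those of TUBB and beyond its spread of 0.20. TUBB6 (ENSG00000176014, chromosome 18, 12307669 to 12344320, plus strand), a minor isotype, had 4.71, 3.91 and 2.98 FPKM, an estimated 142, 150 and 135 fragments. Its change was -0.64 at 5 μM (-1.004 to -0.30) and -0.26 at 2.5 μM (-0.60 to 0.08). These intervals rest on the estimated fragments, and a larger true number would narrow them. Whether the interval at 2.5 μM includes 0 is therefore not settled. The call at 2.5 μM was lost with 1 added to each value (-0.22) and with libraries at the same FPKM sum (-0.21), and the change was within its spread of 0.52.

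The neuron-enriched beta genes moved the other way. TUBB2A (ENSG00000137267, chromosome 6, 3153497 to 3157544, minus strand) had 30.3, 44.03 and 51.7 FPKM, a change of 0.54 (0.41 to 0.67) at the lower dose and 0.77 (0.65 to 0.89) at the higher. TUBB2B (ENSG00000137285, chromosome 6, 3223324 to 3231730, minus strand) had 56.7, 84.0 and 80.1 FPKM, a change of 0.57 (0.48 to 0.65) at 2.5 μM and 0.50 (0.42 to 0.58) at 5 μM. The summed pair, which depends less on how reads were split between them, had 87.0, 128 and 132 FPKM, 1.47 and 1.51 times DMSO. TUBB2BP1, a pseudogene that shares windows with both, had 3.07, 4.11 and 9.59 FPKM. The counting of reads in shared windows is not given in the sources used here, so the pair's levels and shares may miss reads. With mitochondrial and small RNA genes left out of the scaling, the log2 change of the sum was 0.27 at 2.5 μM and 0.22 at 5 μM. On that scale TUBB2B at 5 μM (0.12) and TUBB2A at 2.5 μM (just under 0.25) were no longer past the threshold, while TUBA1A was at -1.48 at 5 μM and TUBB4B at -0.84. With the length trend removed, TUBB2B at 5 μM (0.18) was also within the threshold. TUBB3, a marker of neurons (ENSG00000258947, chromosome 16, 89921392 to 89938761, plus strand), did not join TUBB2A and TUBB2B. It had 0.59, 0.17 and 0.34 FPKM, an estimated 16, 6 and 14 fragments. In all, 92.3% of its windows also occur in other genes, chiefly a readthrough gene on the same strand that was listed at 0 in all 3 libraries. How reads in the shared exons were counted is not given in the sources used here, so these TUBB3 values may miss reads.

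Promoter sequence is shown for the genes with the largest increase and decrease at 5 μM, TUBB2A and TUBA1A, and for TUBB2B, the partner of TUBB2A. Each run is the 250 bases before the RefSeq start (GRCh38.p14), 5′ to 3′ on the minus strand, at chr6:3157545-3157794 for TUBB2A, chr6:3227654-3227903 for TUBB2B and chr12:49189081-49189330 for TUBA1A. Capitals mark motif matches on either strand.
TUBB2A: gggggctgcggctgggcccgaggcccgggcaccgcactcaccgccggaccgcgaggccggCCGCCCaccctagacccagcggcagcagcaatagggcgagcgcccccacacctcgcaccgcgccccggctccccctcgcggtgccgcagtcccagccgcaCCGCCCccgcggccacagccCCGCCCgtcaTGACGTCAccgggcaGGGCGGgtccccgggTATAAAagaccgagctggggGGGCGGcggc
TUBB2B: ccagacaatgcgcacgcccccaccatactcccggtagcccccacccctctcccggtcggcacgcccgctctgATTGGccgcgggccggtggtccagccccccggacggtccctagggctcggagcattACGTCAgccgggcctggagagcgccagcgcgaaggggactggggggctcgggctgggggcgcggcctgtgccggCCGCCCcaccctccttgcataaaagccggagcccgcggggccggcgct
TUBA1A: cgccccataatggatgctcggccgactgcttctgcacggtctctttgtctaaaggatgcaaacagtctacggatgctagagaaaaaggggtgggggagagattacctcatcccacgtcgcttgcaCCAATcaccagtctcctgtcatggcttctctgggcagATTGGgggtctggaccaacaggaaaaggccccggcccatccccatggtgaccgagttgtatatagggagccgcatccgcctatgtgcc

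All 10 genes had a promoter in the RefSeq table. TUBB2A held a TATA box (TATAAA, in 10.7% of 35116 promoters) at -30 to -25 and 5 GC boxes (GGGCGG, in 42.6%). TUBB2B held 1 CCAAT box (CCAAT, in 32.01%) and 1 GC box, and TUBA1A held 2 CCAAT boxes. Both TUBB2A and TUBB2B contained the core of a cAMP response element, the site of CREB and ATF factors (ACGTCA, in 7.10%); this motif was added after these windows had been read. TUBB2A has it on both strands at -60 to -53, where the matches overlap, and TUBB2B has it at -122 to -117. The E-box CACGTG (in 6.34%), a heat shock unit (GAANNTTC, in 11.6%) and the ATF4 and C/EBP composite TGATGNAAT (in 0.888%) matched none of the 3 windows. A match is a run of letters, not a bound site.

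Within each family the make-up of the transcripts shifted. Shares within a library do not depend on scaling between libraries, whereas the summed levels do. Sums and shares cover the 10 examined genes only. The 4 alpha genes together had 185, 103 and 129 FPKM, which is -0.84 and -0.51 on the log2 scale. The 6 beta genes had 654, 479.9 and 558 FPKM, or -0.45 and -0.23, so the beta to alpha ratio, which is also free of scaling, was 3.54, 4.65 and 4.32. With mitochondrial and small RNA genes left out of the scaling, the sums changed by -1.13 and -0.89 for alpha and -0.74 and -0.61 for beta. TUBA1A made up 39.5% of alpha FPKM in DMSO (38.2 to 40.8%), 27.7% at 2.5 μM (26.3 to 29.1%) and 26.3% at 5 μM (25.2 to 27.5%). Each share interval is an exact binomial interval, with the FPKM share applied to the family's summed approximate fragments. TUBA1B made up 43.6%, 52.4% and 52.5%, and TUBA1C 16.6%, 19.6% and 20.8%.

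TUBB2A and TUBB2B together made up 13.3% of beta FPKM in DMSO (12.9 to 13.8%), 26.7% at 2.5 μM (26.1 to 27.3%) and 23.6% at 5 μM (23.1 to 24.1%). Their share was higher after JG231, while that of TUBB and TUBB4B together went from 85.9% to 72.5% and 75.8%. TUBB4B gave up more than TUBB, moving from 37.1% to 27.97% and 31.5%, against 48.8%, 44.5% and 44.2% for TUBB. The interval of each share covers counting error only, since the reads carry no molecular identifiers.

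**Figure D3:**
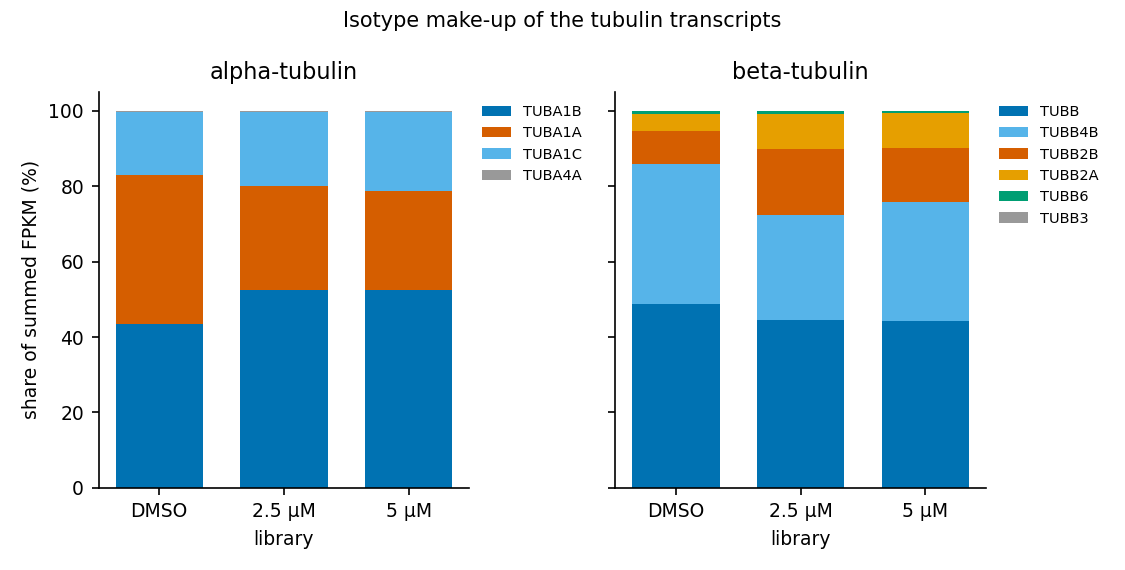
Share of each isotype, in percent of the summed FPKM of the examined alpha-tubulin or beta-tubulin genes, in the 3 libraries. In both JG231 libraries TUBA1A takes a smaller part of alpha-tubulin and TUBB2A with TUBB2B a larger part of beta-tubulin than in DMSO.

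Differences between the doses were small and depended on the scaling. Compared with 2.5 μM, 5 μM gave 4 genes higher, TUBA1A (0.25), TUBA1B (0.33), TUBA1C (0.41) and TUBB4B (0.39), against 26.8% of 14197 genes, and 1 lower, TUBB6 (-0.38), against 30.1%. TUBB (0.21), TUBB2A (0.23) and TUBB2B (-0.068) were within the threshold. TUBA1A was only just past the threshold, and its call was lost with 1 added to each value (0.24), with mitochondrial and small RNA genes left out of the scaling (0.16) and with the length trend removed (0.15). The call of TUBA1B was also lost with mitochondrial and small RNA genes left out of the scaling (0.24) and with the length trend removed (0.22). With all libraries scaled to the same FPKM sum none of the 8 was higher at 5 μM than at 2.5 μM by the threshold, and TUBB6 was still lower, where 16.9% of all genes were higher and 45.1% lower. On that scale TUBB was at 0.030, TUBA1A at 0.071 and TUBA1B at 0.15, within their spreads of 0.20 to 0.22, and TUBB4B was at 0.21 and TUBA1C at 0.23.

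The other tubulins were mostly silent or unlike the members. Epsilon-tubulin TUBE1, a centriole component, had 3.35, 9.93 and 9.32 FPKM, 1.54 and 1.45 above DMSO on the log2 scale. TUBG1, the main gamma-tubulin that nucleates microtubules, had 34.8, 38.5 and 47.7 FPKM, a change of 0.45 at 5 μM. TUBG2 (7.13, 7.45, 6.18), the delta-tubulin TUBD1 (3.04, 2.55, 3.49) and the alpha-like TUBAL3 (3.53, 3.00, 3.70) stayed within the threshold at both doses. TUBA3C, TUBA3E and TUBB4A were listed at 0 in every library. A further 39 rows with tubulin alpha or beta names, mostly pseudogenes, summed to 14.7, 13.6 and 19.4 FPKM.

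Prefoldin genes and most counted folding cofactor genes were higher after JG231, while the chaperonin genes and the factors of tubulin mRNA decay were mixed. The background to these counts is again 36.5% higher and 45.1% lower at 5 μM, and 36.4% and 43.4% at 2.5 μM, with a larger share higher among abundant genes. All 6 prefoldin subunits, which carry new chains to the chaperonin, were higher at both doses in the FPKM as deposited, with medians of 0.84 (5 μM) and 0.81 (2.5 μM). With mitochondrial and small RNA genes left out of the scaling, the medians were 0.46 and 0.52. On that scale subunits with smaller changes, such as PFDN5 (as deposited 0.52 at 5 μM and 0.34 at 2.5 μM), may fall within the threshold. PFDN2 went from 73.6 FPKM to 186 and 212, PFDN4 from 21.4 to 50.7 and 47.1, and PFDN1 from 26.7 to 55.5 and 58.6. Of the 7 folding cofactor genes (8 rows, 6 of them counted), 4 were higher and 1 lower at each dose, with medians of 0.65 and 0.61. TBCC, which triggers dimer release, went from 17.2 FPKM to 36.5 and 50.4, the GTPase ARL2 from 8.68 to 17.3 and 23.6, and TBCB from 51.8 to 80.9 and 97.0. Of the 8 subunits of the chaperonin CCT, 4 were higher and 1 lower at 5 μM, and 3 and 0 at 2.5 μM, so the shares higher, 50% and 37.5%, lay below those of the most abundant genes. CCT7 (68.3, 88.0, 100.3 FPKM), CCT4 (66.1, 80.1, 94.3) and CCT8 (73.5, 95.3, 95.4) were among those higher, and the CCT median of 0.31 at 5 μM became -0.070 with mitochondrial and small RNA genes left out of the scaling. Over the alternatives and both doses, the lowest median was 0.37 for prefoldin and 0.19 for the cofactors.

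Of 11 genes of tubulin mRNA autoregulation, TTC5, SCAPER and the CCR4-NOT deadenylase subunits, 2 were higher and 2 lower at 5 μM, and 4 and 3 at 2.5 μM. CNOT10 (10.5, 14.1, 19.5 FPKM) and CNOT3 (6.40, 10.9, 11.5) were higher, and CNOT6 (19.5, 14.0, 13.4), a catalytic subunit, was lower. TTC5 itself, named after its values were seen, had 2.30, 1.91 and 2.48 FPKM.

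**Figure D4:**
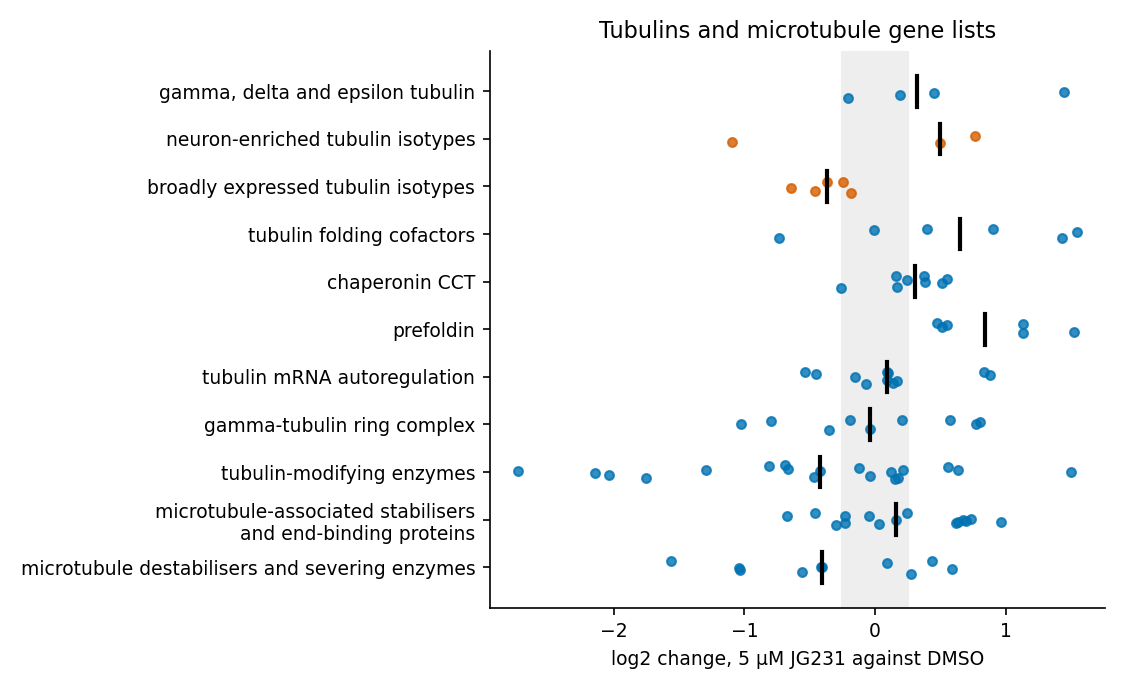
Log2 change at 5 μM of each gene in the tubulin lists and in the lists of related genes, for genes with FPKM above 1 in DMSO or 5 μM; each dot is 1 gene, orange dots are tubulin isotypes, the black bar is the list's median and the grey band is ±0.25. Prefoldin genes lie to the right of the band and most tubulin-modifying enzymes to the left of 0.

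Transcripts of other microtubule genes were split. Of 9 genes of the gamma-tubulin ring complex, which nucleates microtubules, 3 were higher and 3 lower at 5 μM, and 3 and 2 at 2.5 μM. MZT2A (7.47, 11.8, 13.1 FPKM), TUBGCP3 (6.33, 12.5, 10.9) and MZT1 (15.9, 22.9, 23.8) were higher. The 3 lower at 5 μM, named after their values were seen, were TUBGCP4 (-1.02), TUBGCP5 (-0.80) and TUBGCP6 (-0.36). Of 24 tubulin-modifying enzymes, 19 were counted, with 3 higher and 10 lower at 5 μM and 6 and 10 at 2.5 μM, so that 52.6% were lower at each dose. The deacetylase SIRT2 went from 2.87 FPKM to 7.81 and 8.32, TPGS2 of the polyglutamylase complex went from 13.9 to 7.34 and 5.59, and the acetyltransferase ATAT1 went from 8.58 to 4.66 and 4.84. Of 19 stabilisers and end-binding proteins, 15 were counted, with 6 higher and 3 lower at 5 μM and 7 and 1 at 2.5 μM. MAPRE1, the end-binding protein EB1, went from 68.4 FPKM to 102 and 111, MAP7 from 8.15 to 12.6 and 16.0, and MAP1S from 14.8 to 21.2 and 24.7. Of 12 destabilisers and severing enzymes, 10 were counted, with 3 higher and 6 lower at 5 μM and 2 and 5 at 2.5 μM. STMN3, a neuronal stathmin that binds free dimers, went from 88.5 FPKM to 53.5 and 60.1, while the severing-enzyme genes FIGNL1 (19.8, 30.8, 29.8) and KATNA1 (9.80, 22.9, 13.3) were higher. Over the 101 rows of these lists, gamma, delta and epsilon tubulins included, 88 were counted, with 33 higher and 26 lower at 5 μM and 36 and 22 at 2.5 μM. The shares higher, 37.5% and 40.9%, were close to the background of 36.5% and 36.4%, and the shares lower, 29.5% and 25%, were below the background of 45.1% and 43.4%.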

How the data were processed

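RNA from H660 cells was sequenced in 3 libraries, 1 per condition. The authors used HISAT for alignment and StringTie for quantification, and deposited FPKM values per gene. The submitters' processing notes list HISAT2, featureCounts, GRCh38 and hg38 without versions. RNA input differs between the paper and the sample records. FPKM values are not counts, so no count model was run.

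Identifiers of 58207 of 58735 genes were found in GENCODE release 44. The size of 1 fragment was checked on single-transcript genes under 50 fragments, using FPKM times exon length. It gave whole fragments, within 0.05, for 88.5% of 4723 genes in DMSO, 86.0% of 3247 at 2.5 μM and 84.5% of 2026 at 5 μM. Fragments of the tubulin genes used the length of 1 GENCODE transcript instead, which this check did not cover. They are approximate and may be too low or too high. Changes are log2 of FPKM plus 0.1, counted past 0.25 with FPKM above 1 in either library. These values are in the study's methods, but applying the filter to either library was chosen here, and genes at 0 in 1 library entered only if above 1 in the other. Counting intervals are 95%, exact and conditional on the summed fragments. Their widths depend on these approximate fragments.

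Named genes were all 10 tubulins, other tubulins with a mean of at least 1 FPKM and, in each related list, up to 3 genes with a mean of at least 5 FPKM and the largest change at 5 μM, past 0.25 with the same sign at both doses. Some of the marker genes looked at are not reported here. The members and lists were chosen with earlier results of these data known. Scripts (Python 3.11.15, pandas 2.3.3, scipy 1.17.1, statsmodels 0.14.6) were tested on simulated data. Alternatives were other pseudocounts (1 and 0.01), filters, a threshold of 1, rescaling, centring, a length correction and summed paralogs.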

Additional observations from a re-analysis of the deposited data

How the results depend on the processing

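Against DMSO, every tubulin gene kept its direction under the other pseudocounts, scalings and the length correction, while the sizes moved, TUBB2B at 5 μM from 0.50 to 0.12 and TUBA1B from -0.25 to -0.63 when mitochondrial and small RNA genes were left out of the scaling. With a pseudocount of 1, 3 tubulin genes in place of 4 were higher between doses. At a threshold of 1, the tubulin genes higher became 0 at each dose and those lower 1 at each dose, and between doses 0 higher and 0 lower. Rescaled without mitochondrial and small RNA genes, 1 tubulin gene was higher at 5 μM, 1 at 2.5 μM and 2 between doses, and 6 were lower at each dose. With the length trend removed, 1 was higher at 5 μM and 2 between doses, and with libraries at the same sum 0 were higher between doses. A mean of at least 5 FPKM left 0 lower between doses, since it removes TUBB6. Over the related lists, a threshold of 1 gave 7 higher and 9 lower at 5 μM and 7 and 4 at 2.5 μM, and the rescaling gave 19 and 42 at 5 μM and 21 and 40 at 2.5 μM, where over all genes it gave 23.1% higher and 59.6% lower at 5 μM and 24.8% and 55.6% at 2.5 μM. A mean of at least 5 FPKM left 11 lower at 5 μM and 9 at 2.5 μM. With pseudogene rows added, TUBB2A and TUBB2B held 26.0% of beta FPKM at 2.5 μM and 22.9% at 5 μM. Medians past 0.25 that changed sign were, with a mean of at least 5 FPKM, the beta-tubulins at 5 μM (0.065), the modifying enzymes (0.044 at 5 μM, 0.17 at 2.5 μM) and the destabilisers at 2.5 μM (0.12), with fewer genes entering each. Under the rescaling they were, at 5 μM, the gamma, delta and epsilon tubulins (-0.049) and CCT (-0.070), and without the expression filter, which adds TUBB3, the neuron-enriched isotypes (-0.079 at 5 μM, -0.41 at 2.5 μM). Medians within 0.25 changed sign too: under the rescaling those of CCT (-0.10) and the gamma, delta and epsilon tubulins (-0.19) at 2.5 μM, and at 5 and 2.5 μM those of mRNA autoregulation (-0.28, -0.21), the stabilisers (-0.21, -0.095) and all related lists (-0.23, -0.19). The gamma-tubulin ring complex did so with a mean of at least 5 FPKM (0.39, 0.34) and at 2.5 μM with the same sum (0.010). The gamma, delta and epsilon tubulins did so at 2.5 μM with the length trend removed (-0.16), and autoregulation at 5 μM with the same sum (-0.034). Beyond these built-in differences the cause was not tested. No paired analysis was possible because each condition has 1 library, and leaving out a replicate was not possible for the same reason. With TUBA1A, TUBA1B and TUBA1C summed, no TUBA1A share could be given. The depth behind TUBA4A, TUBB3 and TUBB6 limits what can be said of them.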
